A study of Mus musculus with 2 samples.

Results

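The cells described here are the male germ cells of the E12.5 mouse testis with the highest levels of mitotic transcripts, 624 of the 2494 germ cell barcodes of that stage and of the 5839 barcodes in both libraries. They were taken from sorted Oct4GFP+ cells of male CD1 embryos, and 1 single-cell library was made at E12.5 and 1 at E13.5. Both stages share the CD1 background, the male sex and the Oct4GFP+ gate, and the labels do not say how many embryos were pooled in either library. A barcode stands for 1 captured cell, and a unique molecular identifier (UMI) marks 1 captured transcript. A barcode counted as a germ cell when it had at least 500 genes, at least 5000 UMIs and under 10% mitochondrial UMIs, and when Dazl, Pou5f1, Dppa3 and Dppa5a together made up at least 0.2% of its UMIs. Members were chosen by a score, as the highest 25% of these barcodes for the summed UMIs of Plk1, Aurka, Ccnb1, Cdc20, Cenpf and Tpx2 per 10000 UMIs. They were compared with the low-score set, the 1247 barcodes that make up the lowest 50% of the same score in the same library. An intermediate set of 623 barcodes lay between them.

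Germ cells that have settled in the fetal testis keep dividing for a short time before they arrest in the G0/G1 phase of the cell cycle as prospermatogonia. A dividing cell copies its DNA in S phase and builds up cyclin B and the mitotic kinases in G2. In M phase it condenses its chromosomes, pulls them apart on the spindle and divides, and the anaphase-promoting complex (APC/C) then destroys cyclin B. Many genes of G2 and M share a promoter layout in which CCAAT boxes, bound by the factor NF-Y, stand before a cell cycle homology region (CHR), bound by the DREAM and MuvB complexes. Transcripts of these genes build up through G2 and are still present in M, so transcript levels alone do not separate the 2 phases.

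The promoters of Plk1 and Cdc20 (score genes), of Cdk1 and Hmmr (mitotic genes that the score did not use) and of Rrm2 (an S phase gene) are shown because they let the shared letters be seen beside the values that follow. Each is the 100 bases upstream of the RefSeq start on build GRCm38.p6, written 5′ to 3′ on the strand of the gene, with CCAAT boxes (CCAAT or its reverse, ATTGG) and CHR letters (TTTGAA or TTTAAA, on either strand) in capitals. Plk1 is at chr7:122159335-122159434 (+), Cdc20 at chr4:118437344-118437443 (-), Cdk1 at chr10:69352913-69353012 (-), Hmmr at chr11:40733438-40733537 (-) and Rrm2 at chr12:24708154-24708253 (+).
Plk1: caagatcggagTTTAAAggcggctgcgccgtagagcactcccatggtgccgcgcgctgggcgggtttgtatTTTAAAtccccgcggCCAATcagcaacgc
Cdc20: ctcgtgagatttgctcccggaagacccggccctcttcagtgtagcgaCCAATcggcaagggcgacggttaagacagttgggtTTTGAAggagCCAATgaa
Cdk1: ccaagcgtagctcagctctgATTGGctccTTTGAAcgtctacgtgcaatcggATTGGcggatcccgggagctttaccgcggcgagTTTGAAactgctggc
Hmmr: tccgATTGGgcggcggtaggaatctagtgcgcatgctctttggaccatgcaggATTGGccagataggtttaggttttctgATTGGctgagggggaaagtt
Rrm2: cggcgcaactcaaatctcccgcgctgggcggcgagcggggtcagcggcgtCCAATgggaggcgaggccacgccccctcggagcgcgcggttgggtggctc
The 3 windows of Plk1, Cdc20 and Cdk1 hold both kinds of letters, and those of Hmmr and Rrm2 hold CCAAT boxes alone. In Plk1 the only CCAAT box, 14 bases upstream, stands after both CHR matches, which lie at 89 and 29. Cdc20 and Cdk1 have CCAAT boxes both before and after a CHR match. A match of letters is a description of the window and not a shown binding site.

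The score ran from 0 to 44.0 UMIs per 10000 over the germ barcodes, with no gap at the boundary of the members. The lowest member stood at 19.86 and the highest barcode just outside at 19.85. Within 10% of the boundary lay 376 barcodes, 177 inside and 199 outside, so the boundary cuts a continuous spread of the measured score. Counting error in the score can hide a gap, so these values do not show whether members form a separate class. Medians were 23.8 UMIs per 10000 in members and 8.18 in the low-score set. Members held 15812713 UMIs in all and the low-score set 28732258. A member had a median of 24440 UMIs (interquartile range 20513.8 to 29599.8), against 22929 in the low-score set (19257.5 to 26755.5), and 4690 genes against 4441. Mitochondrial UMIs made up a median of 3.78% in members and 3.93% in the low-score set. The doublet caller Scrublet marked 2 members and 32 low-score barcodes, and 4 members and 6 low-score barcodes carried a barcode that also occurs in the other library.

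**Figure D1:**
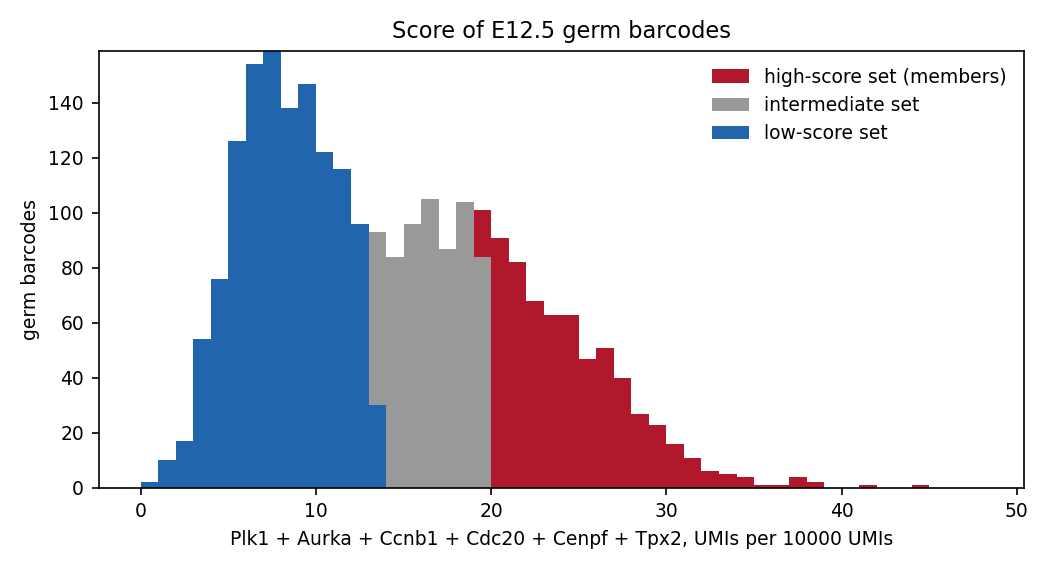
Distribution of the score over the 2494 E12.5 germ barcodes (x axis, summed UMIs of the 6 score genes per 10000 UMIs; y axis, number of barcodes per bin of 1 unit). The 624 members form the right side of the distribution, with no gap at the boundary near 19.9.

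The 6 score genes chose the members, so their levels are a description. Levels are given in CPM, the UMIs of a gene over all barcodes of a set per 1000000 UMIs of that set. Ccnb1, the cyclin that switches on Cdk1 for entry into mitosis, had 527 CPM in members, 341 in the intermediate set and 166 in the low-score set. Plk1 and Aurka, kinases of centrosome maturation and spindle assembly, had 112 and 147 CPM in members, against 31.6 and 45.7 in the low-score set. Tpx2, which brings Aurka to the spindle, had 200 and 66.6 CPM. Cdc20, the activator of the APC/C at anaphase, stood widest apart, at 398 CPM in members and 85.6 in the low-score set. Cenpf, a kinetochore protein of G2 and M, was the most abundant at 1061 CPM in members and the least far apart, with 440 CPM in the low-score set.

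To read a score gene apart from its own part in the choice, members were chosen again with each gene left out of the score in turn. Cdc20 was then 3.61-fold higher in the newly chosen members than in their low-score set (95% interval 3.45 to 3.77), Plk1 3.0-fold, Aurka 2.83-fold, Tpx2 2.66-fold, Ccnb1 2.53-fold and Cenpf 1.97-fold (1.92 to 2.02). Choosing members on a random 50% of each barcode's UMIs and reading the remaining UMIs gave 3.67-fold for Cdc20 and 2.14-fold for Cenpf, with the 4 other genes between them. All 6 genes still took part in that choice. It removed shared counting error only, and a higher level of each score gene was built in. How often the 6 transcripts occurred together in single barcodes is again a description, since their sum chose both sets. After each barcode was thinned to 14500 UMIs, 361 of 587 members (61.5%) had a UMI of all 6 genes and none had fewer than 4, against 91 of 1155 low-score barcodes (7.88%) with all 6. The germ sort holds no cell type known to lack these genes, so the share that free RNA gives was not measured.

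Outside the score, few genes differed by 1.5-fold or more. Higher genes were 17 of 23 compared in the spindle list, 9 of 41 in the kinetochore and checkpoint list and 8 of 14 in the cytokinesis list. Lower genes were 20 of 55 compared in the S phase replication list, 11 of 18 in the G1/S list and all 9 clustered histones. Of 6875 genes compared, which had at least 10 CPM over all germ barcodes, at least 3 UMIs in each set and no part in the score, 154 (2.24%) were at least 1.5-fold higher in members and 92 (1.34%) at least 1.5-fold lower. The other 6629 genes (96.4%) lay within 1.5-fold, and the median log2 ratio over all compared genes was 0.03. A short list with no gene past 1.5-fold is therefore near the share of all genes. Of the 154 higher genes, 46 belonged to the mitosis lists used here. These are mitotic entry, condensation, kinetochore, chromosomal passenger complex, spindle, centrosome, cytokinesis, APC/C, cohesin, nuclear envelope and tubulins. Of the 92 lower genes, 40 belonged to the lists of G1/S, S phase replication and clustered histones, and 2, Fbxo5 and Ncapd3, to a mitosis list. With 1 library per stage there is no replicate of the contrast and no test. Intervals beside ratios are exact binomial 95% intervals that cover counting error only, and "higher" and "lower" mean a ratio of at least 1.5-fold.

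**Figure D2:**
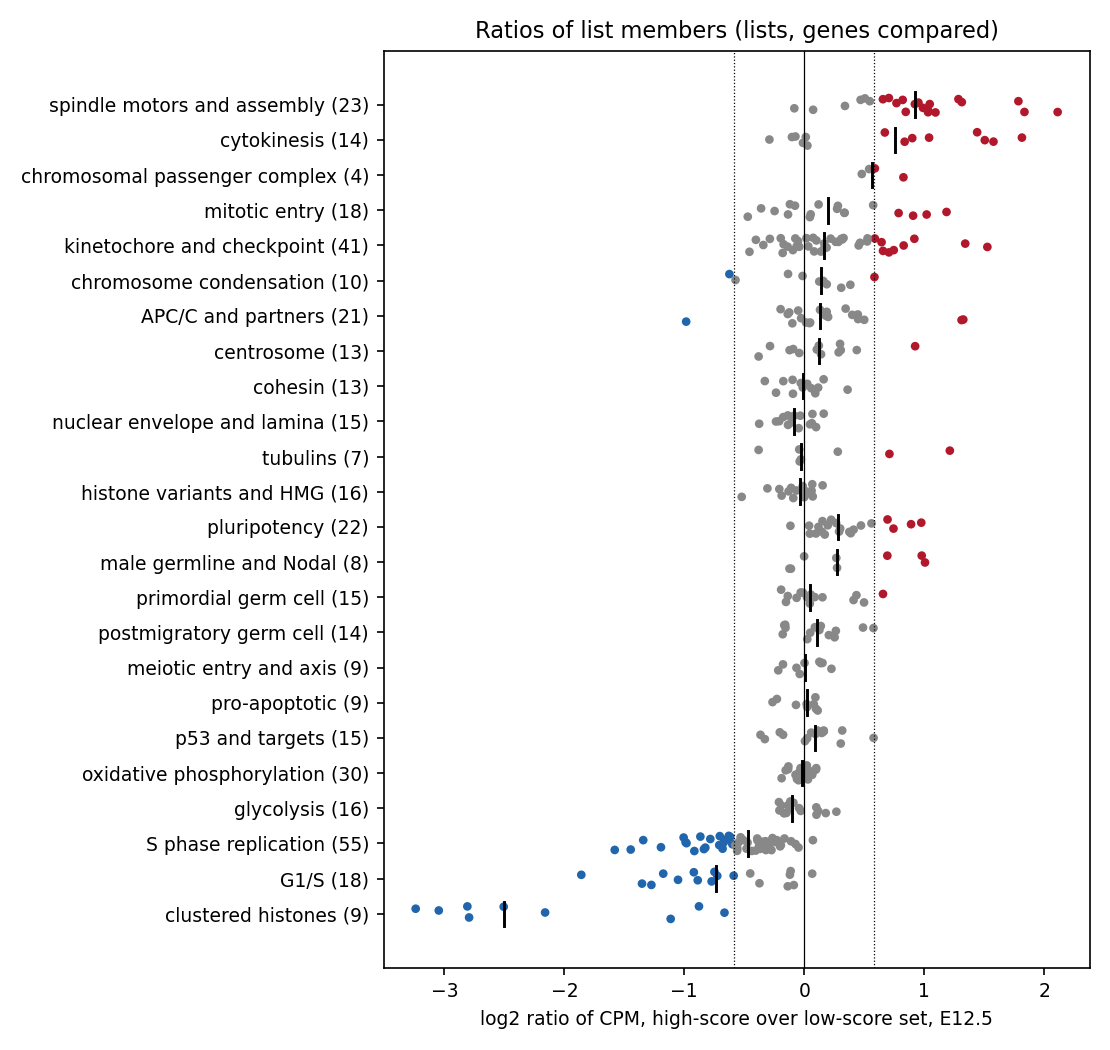
Log2 ratio of CPM, members over low-score set at E12.5, for each compared gene of 24 lists (points), with the list median (black bar) and 1.5-fold in either direction (dotted lines); red and blue points are past 1.5-fold. Spindle and cytokinesis genes lie furthest right (medians 0.92 and 0.75) and clustered histones furthest left (median -2.51).

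Genes of the spindle had the highest list median but for the score itself: 17 of 23 compared genes were higher, none was lower, and the median log2 ratio was 0.92. Hmmr, a spindle and centrosome protein, had 162 CPM in members, 115 in the intermediate set and 45.3 in the low-score set, a ratio of 3.57 (3.34 to 3.82). Nusap1, which bundles spindle microtubules, had 132 and 38.2 CPM, a ratio of 3.45. Fam83d, which guides a chromosome-pushing motor on the spindle, had the largest ratio of the list at a low level, 24.1 CPM in members and 5.57 in the low-score set (4.33-fold, 3.59 to 5.24). Knstrn, a spindle adaptor, had 74.9 and 30.1 CPM, and Kpna2, an importin that carries spindle factors, 93.5 and 38.4 CPM. The motors Kif11, Kif20b and Kif22 were 1.94-fold, 1.99-fold and 2.05-fold higher. Prc1, which crosslinks microtubules of the spindle midzone, had 177 CPM in members and 85.8 in the low-score set. Not all spindle genes took part, since Numa1 had 62.5 and 59.4 CPM and Kif15 38.4 and 40.7 CPM.

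Cytokinesis genes had the next highest list median. Of 14 compared, 8 were higher and 6 lay within 1.5-fold, with a median log2 ratio of 0.75. Kif23 and Racgap1, the motor and the GTPase regulator of the central spindle, had 69.7 and 65.9 CPM in members, against 25.7 and 35.3 CPM in the low-score set. Ect2, the exchange factor that they recruit to switch on RhoA, had 60.5 and 29.4 CPM, and Arhgef39, another exchange factor, 17.5 and 4.98 CPM. Aspm, which acts at spindle poles and in cytokinesis, was 2.99-fold higher. Septins Sept2 and Sept11, which are used outside mitosis too, had 33.7 and 48.4 CPM in members and 35.5 and 59.2 CPM in the low-score set. Arl6ip1, a membrane-shaping protein of the endoplasmic reticulum that was placed in this list, was its most abundant member, at 824 CPM in members and 290 in the low-score set (2.84-fold, 2.76 to 2.92).

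Kinetochore and checkpoint genes moved less as a group: 9 of 41 compared were higher, none was lower, and the median log2 ratio was 0.17. Cenpe, the motor that carries chromosomes to the spindle equator, led with 193 CPM in members and 66.9 in the low-score set (2.88-fold). Cenpa, the centromeric histone, had 492 and 301 CPM (1.63-fold). Bub3, a checkpoint scaffold, had 261 and 138 CPM, Bub1b, its partner in holding back anaphase, 63.6 and 40.7 CPM, and Casc5, the kinetochore platform on which they dock, 50.2 and 28.3 CPM. The checkpoint kinase Bub1 had 103 and 85.5 CPM, Mad2l1 91.1 and 74.7 CPM, and the outer kinetochore gene Ndc80 34.3 and 32.6 CPM, all within 1.5-fold. In the chromosomal passenger complex, which corrects wrong attachments, Incenp had 221 and 124 CPM and was 1.77-fold higher. Its kinase Aurkb had 55.5 and 38.1 CPM (1.46-fold), Cdca8 354 and 254 CPM (1.39-fold), and Birc5 277 and 184 CPM, at 1.504-fold on the boundary.

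Of 18 mitotic entry genes outside the score, 4 were higher and the median log2 ratio was 0.20. Cdk1, the kinase that drives mitosis, had 165 CPM in members, 130 in the intermediate set and 95.5 in the low-score set (1.73-fold, 1.63 to 1.82). Cks2, a small subunit of that kinase, was the most abundant gene of the list at 1013 and 540 CPM. Cdc25c, the phosphatase that switches Cdk1 on, had 23.6 and 11.6 CPM, and Ccnf, a cyclin of G2 that directs protein breakdown, 95.9 and 42.1 CPM. The other mitotic cyclins of the list stood closer together than Ccnb1: Ccnb2 had 275 and 218 CPM and Ccna2 188 and 155 CPM. Wee1 and Pkmyt1, the kinases that restrain Cdk1, had 31.9 and 13.9 CPM in members, against 40.9 and 19.3 in the low-score set, within 1.5-fold.

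Among the APC/C and its partners 2 of 21 genes were higher and 1 was lower. Ube2c, the enzyme that delivers ubiquitin to the APC/C, had 796 CPM in members, 606 in the intermediate set and 317 in the low-score set (2.51-fold, 2.44 to 2.58). Fzr1, the activator that replaces Cdc20 late in mitosis, had 68.6 and 27.6 CPM. Fbxo5, an inhibitor of the APC/C that is made at the start of S phase, was the lower one, at 63.3 CPM in members and 125 in the low-score set. Core subunits such as Anapc1 and Anapc11 had 56.2 and 323 CPM in members and 61.8 and 370 CPM in the low-score set. Condensation genes were mixed: Mki67, which coats mitotic chromosomes, had 219 and 146 CPM (1.501-fold), Top2a, the topoisomerase that untangles DNA, 589 and 476 CPM (1.24-fold), and Ncapd3, a condensin II subunit, 50.3 and 77.6 CPM. None of 13 cohesin genes and none of 15 nuclear envelope genes reached 1.5-fold in either direction, and 1 of 13 centrosome genes did, the kinase Nek2 at 33.9 and 17.9 CPM. Of 7 tubulins, Tuba1c (106 and 45.6 CPM) and Tubb4b (886 and 541 CPM) were higher. The near-identical Tuba1a and Tuba1b had 109 and 937 CPM in members and 111 and 962 CPM in the low-score set. Reads of such close copies can be hard to assign to 1 gene, so values of single tubulins, histones and Kpna2 are uncertain.

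Single barcodes showed how far the 2 sets overlap. A member had a median of 7.80 Ube2c UMIs per 10000 (quartiles 6.28 and 9.58), against 2.91 in the low-score set (1.95 and 4.10), so the interquartile ranges do not meet. Arl6ip1 had a median of 7.93 in members (6.08 and 10.3) and 2.66 in the low-score set (1.66 and 3.85), also apart. For Cks2 these medians were 10.0 and 5.17. For Top2a the interquartile ranges overlapped, at 2.98 to 7.86 in members and 3.03 to 6.16 in the low-score set. By Spearman's rank correlation with the score across all 2494 germ barcodes, the 5 genes most alike were Ube2c (0.72), Arl6ip1 (0.70), Cks2 (0.65), Hmmr (0.60) and Nusap1 (0.57), as a description of barcodes that share 1 library. Counting noise lowers this measure for scarce genes, so its order also follows abundance.

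Cutting the score into 8 equal parts showed a graded change and no step for the mitotic genes. Hmmr had 30.8 CPM in the lowest eighth and then 33.4, 47.6, 67.5, 102, 127, 145 and 179 CPM in the highest. Ube2c had 257 CPM in the lowest eighth and 828 in the highest, and every eighth was higher than the one below. Nusap1 had 22.8 CPM in the lowest eighth, 130 in the lower eighth of the members and 133 in their upper eighth, so its level differed little within the members. Cdk1, by contrast, had 148 CPM in the lower eighth of the members and 181 in the upper. Median UMIs per barcode were 21516.5 in the lowest eighth and 24350.5 in the highest. Clustered histone genes went the other way and more abruptly, with 1150 summed CPM in the lowest eighth, 922 in the fourth, 520 in the fifth and 173 in the highest.

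**Figure D3:**
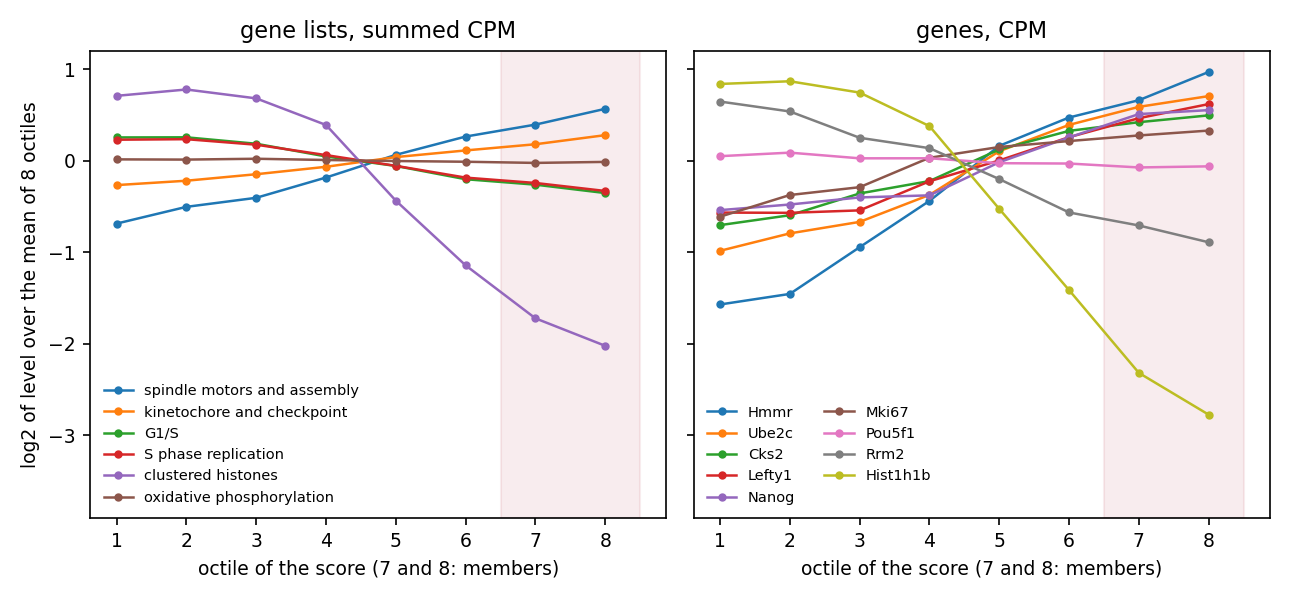
Level of gene lists (left) and genes (right) in each of 8 score ranges of E12.5 germ barcodes, low to high, as log2 of the level over its mean across the 8 (y axis); ranges 7 and 8, shaded, are the members. Hmmr and Ube2c climb through all 8 ranges, Hist1h1b has 307 CPM in the lowest range and 25.1 in the highest, and oxidative phosphorylation genes stay level.

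S phase genes were the main group on the low side. Of 55 compared replication genes, 20 were lower in members, none was higher, and the median log2 ratio was -0.47, beside 0.03 over all genes. Rrm2, a subunit of the enzyme that makes DNA building blocks, had 65.6 CPM in members, 88.0 in the intermediate set and 150 in the low-score set (log2 ratio -1.19). Pcna, the sliding clamp of the replication fork, had 51.9 and 97.9 CPM. Mcm4 and Mcm5, subunits of the replicative helicase, had 55.6 and 105 CPM in members and 112 and 181 CPM in the low-score set. Cdc45, which switches that helicase on, had 40.5 and 74.9 CPM, Chaf1b, which places histones on new DNA, 20.5 and 55.9 CPM, and Dscc1, part of a clamp loader, 12.7 and 38.0 CPM. Genes of the G1/S transition followed, with 11 of 18 lower and a median log2 ratio of -0.74. Ccne1, the cyclin of S phase entry, had 37.4 and 84.6 CPM, and E2f8, a repressor that E2F factors switch on, 8.03 and 29.1 CPM. Cdk4 (384 and 416 CPM) and Orc1 (18.9 and 20.1 CPM) lay within 1.5-fold.

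Clustered histone genes stood furthest apart of all lists. All 9 that could be compared were lower in members, with a median log2 ratio of -2.51, but 28 of the 37 genes of the list were not compared, being below the minimum level or not listed. Transcripts of these genes mostly end in a stem-loop and carry no poly(A) tail, so a 3′ poly(A)-primed assay sees only a part of them. Hist1h1b, a linker histone, had 29.8 CPM in members, 91.8 in the intermediate set and 281 in the low-score set, 9.45-fold lower. Hist1h2ap had 46.0 and 322 CPM (7.01-fold lower), Hist1h2ae 5.82 and 48.1 CPM, and Hist1h1e 40.9 and 232 CPM. Slbp, the protein that binds the histone stem-loop and is made in S phase, had 208 and 432 CPM. Replication-independent variants behaved otherwise, since none of the 16 compared variant and HMG genes reached 1.5-fold, with H3f3b at 1440 CPM in members and 1781 in the low-score set.

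The low level of S phase genes held for nearly every member and not only for their sum. Summed S phase replication UMIs per 10000 had a median of 59.0 in members, 66.6 in the intermediate set and 81.9 in the low-score set. Only 11 of 624 members (1.76%) reached the low-score set's median. Summed clustered histones had medians of 1.64, 2.34 and 11.2 UMIs per 10000, and 6 members reached the low-score set's median. The low-score set thus holds many barcodes with high S phase transcripts, and each ratio is read against that makeup. Split at the median of the summed S phase genes, its lower part still left 128 genes higher and 60 lower, with 10 replication genes among the lower, and its upper part gave 206 higher, 152 lower and 30 replication genes. Against the lower part Rrm2 had a log2 ratio of -0.87 and Hmmr of 1.54. This split was added after the data were seen, and the S phase genes themselves set it.

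**Figure D4:**
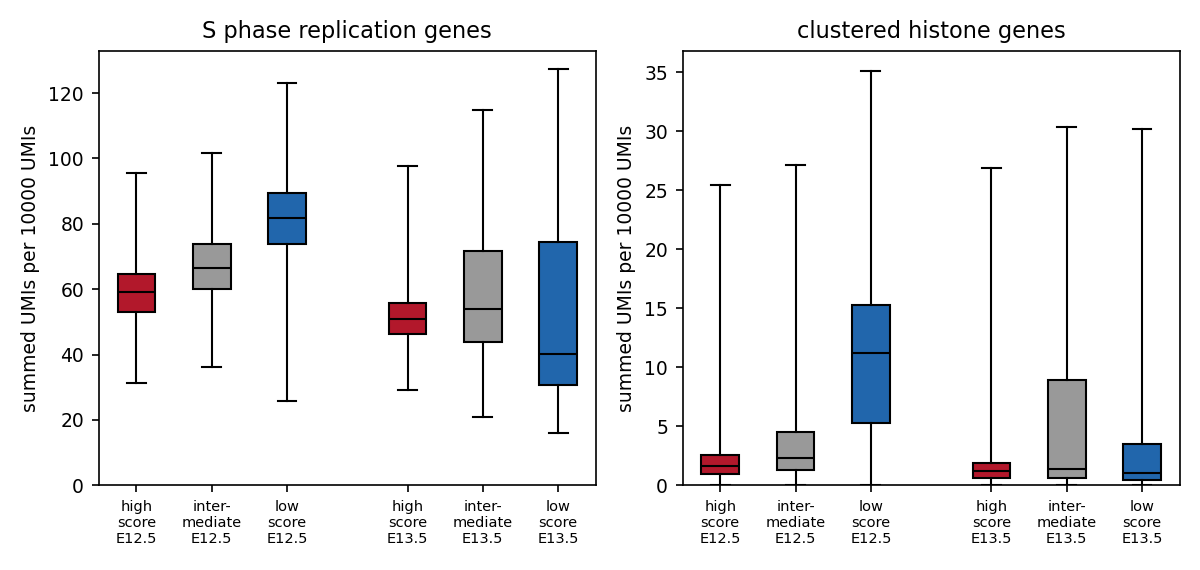
Summed UMIs per 10000 of S phase replication genes (left) and clustered histone genes (right) per germ barcode, by score range and stage; boxes are quartiles, lines the median, whiskers the lowest and highest barcode. At E12.5 members have the lowest medians (59.0 and 1.64) and the low-score set the highest (81.9 and 11.2); at E13.5 the low-score set has the lowest median of S phase genes (40.3).

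Some germ cell genes also had higher levels in members. Of 22 pluripotency genes 4 were higher, none was lower, and the median log2 ratio was 0.28. Nanog, a core pluripotency factor, had 47.3 CPM in members, 35.7 in the intermediate set and 24.0 in the low-score set (1.97-fold, 1.77 to 2.18). Klf2, a factor of naive pluripotency, had 85.0 and 45.8 CPM, Tcl1, a cofactor of the kinase Akt, 114 and 67.8 CPM, and Zfp42, a zinc finger marker of pluripotent cells, 102 and 62.8 CPM. Pou5f1, whose reporter was used for the sort and which entered the germ cell rule, had 478 and 517 CPM, and Sox2 131 and 116 CPM. In the list of male germline and Nodal genes, 3 of 8 were higher and the median log2 ratio was 0.27. Lefty1 and Lefty2, secreted inhibitors that Nodal signalling switches on, had 134 and 308 CPM in members, against 66.5 and 190 CPM in the low-score set. Tdgf1, the coreceptor of Nodal, had 16.9 and 8.56 CPM, and Nodal itself 13.3 and 11.0 CPM.

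A member's median was 1.07 Lefty1 UMIs per 10000 (quartiles 0.44 and 1.91), and that of a low-score barcode was 0.45 (0 and 0.97), so the sets overlap broadly. Across the eighths of the score, Lefty1 had 62.0, 61.9 and 63.0 CPM in the lowest 3 and 141 CPM in the highest, and Nanog 22.5 CPM in the lowest and 48.0 in the highest. Of 15 primordial germ cell genes Dnd1 alone was higher, an RNA-binding protein needed for germ cell survival, at 200 and 127 CPM (1.58-fold). None of 14 postmigratory germ cell genes reached 1.5-fold. Ddx4, an RNA helicase of germ cells, had 79.1 and 88.7 CPM, and Dazl, an RNA-binding protein that entered the germ cell rule, 902 and 756 CPM. Among 9 meiotic genes none reached 1.5-fold, with Syce2 at 283 and 329 CPM. Blnk, a signalling adaptor known from B cells, was among the 15 genes of highest ratio, at 82.1 and 32.9 CPM (2.50-fold).

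Genes of cell death, which the study's title names, lay close together in both sets, as did most compared genes. None of 9 compared pro-apoptotic genes (of 20 in the list) and none of 15 compared p53 genes and targets (of 23) reached 1.5-fold. Their median log2 ratios were 0.02 and 0.09. Over all compared genes 96.4% lay within 1.5-fold, so lists without a call are not particular to cell death. Bax, the pore-forming effector, had 510 CPM in members, 507 in the intermediate set and 501 in the low-score set (ratio 1.02, 0.99 to 1.05). Bcl2l11, an activator of Bax, had 16.63 and 19.98 CPM, and Trp53 227 and 184 CPM. Glycolysis (16 genes) and oxidative phosphorylation (30 genes) held no gene at 1.5-fold, and neither did the 7 CDK inhibitors and pocket proteins, among which Cdkn1a had 40.0 and 32.1 CPM. Of 12 heat shock and immediate early genes, Fos alone was lower, at 6.13 and 14.3 CPM. Summed markers of other testis cells lay within 1.5-fold between the sets. Macrophage markers summed to 2.15 and 2.02 CPM, with Adgre1, C1qc and Lyz2 at 0, fetal Leydig and interstitial markers to 1.01 and 0.94 CPM, and erythroid markers to 0.32 and 0.24 CPM. Sertoli markers summed to 69.2 and 70.0 CPM, mostly Dmrt1, and endothelial markers to 115 and 111 CPM, mostly Pecam1, both of which germ cells also express. Epithelial markers summed to 460 and 369 CPM, mostly Epcam, also a germ cell gene, at 431 and 342 CPM.

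The same rule was applied to the E13.5 library, where 638 of 2549 germ barcodes formed the high-score set and 1275 the low-score set. At the E12.5 boundary itself, 619 E13.5 germ barcodes (24.3%, exact 95% interval 22.6 to 26.0) would have counted as members, beside the 25% that the rule fixes at E12.5. That interval covers counting error over barcodes of 1 library and not the spread between embryos or libraries. At or under the E12.5 limit of the low-score set lay 58.0% of E13.5 germ barcodes, beside the 50% fixed at E12.5. The libraries differ in stage and in preparation at once, so the 2 cannot be told apart. Erythroid markers summed to 23.1 CPM in the E13.5 high-score set and 463 CPM in its low-score set. Single barcodes of that low-score set had a median of 0 erythroid UMIs per 10000, a 75th percentile of 0.46 and a maximum of 3008.53. The sum thus came from a minority of barcodes, and the part of these markers in the E13.5 ratios was not tested.

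At E13.5, 222 of 6829 compared genes (3.25%) were at least 1.5-fold higher in the high-score set and 161 (2.36%) at least 1.5-fold lower. Of the 154 genes higher at E12.5, 133 were compared at E13.5, 126 had a ratio of the same direction there and 87 were also higher by 1.5-fold, which is 56.5% of the E12.5 genes and 39.2% of the E13.5 genes. Of the 92 lower genes, 72 were compared at E13.5 and 66 had a ratio of the same direction. Also lower by 1.5-fold were 14, which is 15.2% of the E12.5 and 8.70% of the E13.5 genes. The share of all compared genes with the same direction at both stages was not counted, so the counts of same direction lack that background. The log2 ratio of Hmmr was 2.25 at E13.5 and 1.84 at E12.5, that of Ube2c 1.90 and 1.33, and that of Tuba1c 2.59 and 1.21. Cenpe had nearly the same ratio at both stages, with log2 values of 1.59 and 1.53. Kinetochore and checkpoint genes were higher in 15 of 39 at E13.5 (median log2 ratio 0.46), and spindle genes in 20 of 23 (1.24). Nanog had 32.2 and 20.9 CPM at E13.5, and Lefty1 264 and 99.4 CPM.

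For S phase genes the values of the 2 stages lay far apart. At E13.5 only 2 of 54 replication genes were lower in the high-score set and 1, Gins1, was higher, with a median log2 ratio of -0.04, beside 20 of 55 and -0.47 at E12.5. Pcna had 46.9 CPM in the E13.5 high-score set and 52.6 in the low-score set, and Slbp 211 and 251 CPM. The median of summed S phase genes per 10000 was 51.0 in the E13.5 high-score set and 40.3 in its low-score set, the opposite order to E12.5. There, 607 of 638 barcodes (95.1%) of the high-score set exceeded the low-score set's median. Clustered histones were lower in all 6 compared at E13.5 (median log2 ratio -1.57), although the per-barcode medians were 1.21 and 1.02. Rrm2 at 18.6 and 34.2 CPM and Ccne1 at 9.51 and 25.9 CPM were lower at both stages. The difference between the stages was not tested.

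**Figure D5:**
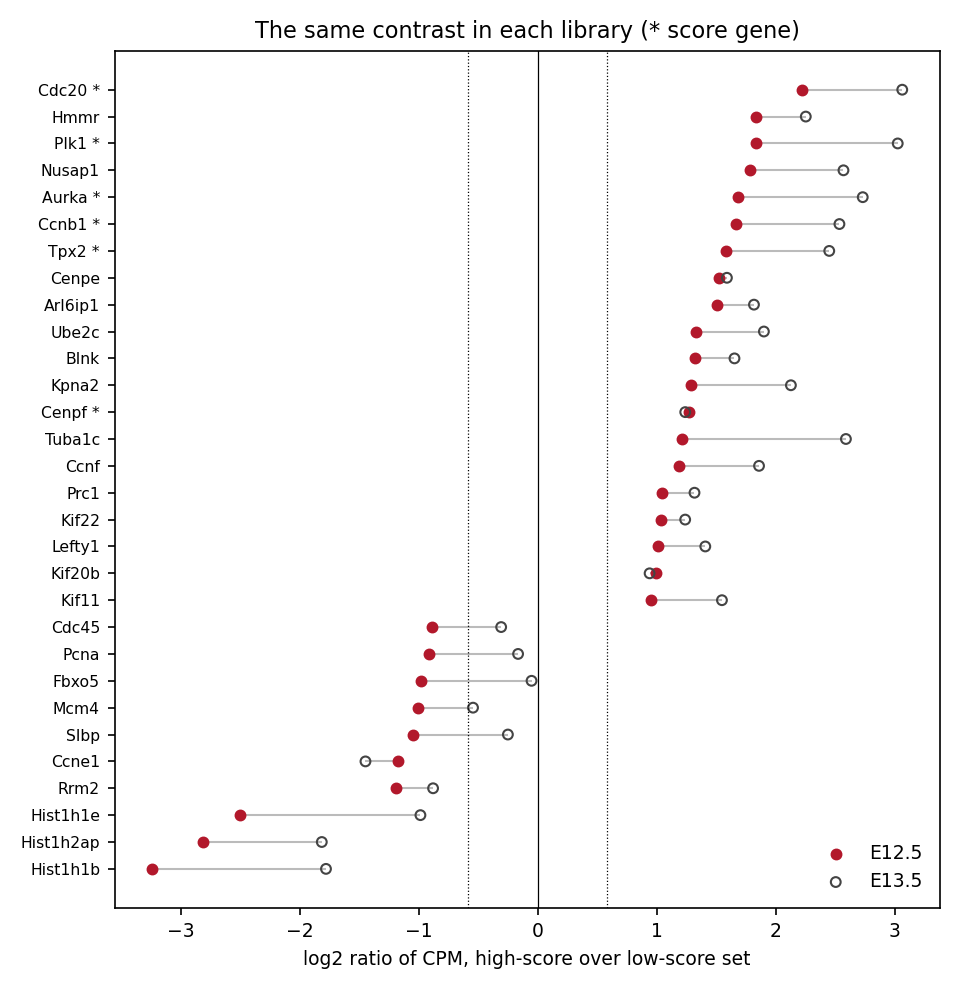
Log2 ratio of CPM, high-score set over low-score set, at E12.5 (filled) and E13.5 (open), for the 6 score genes (starred) and for 14 genes of highest and 10 of lowest ratio at E12.5 among genes of at least 50 CPM; dotted lines mark 1.5-fold. The mitotic genes lie right of 0 at both stages, most of them further at E13.5 (Tuba1c 2.59 and 1.21), while Pcna, Fbxo5 and Slbp lie near 0 at E13.5 and near -1 at E12.5.

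The promoter letters shown above were counted over all genes compared. The search took the 250 bases upstream of each RefSeq start, on both strands, for CCAAT, for CHR letters (TTTGAA or TTTAAA) and for E2F letters (TTTCCCGC or TTTGGCGC); TTTAAA reads the same on both strands, and no 2 of these motifs share a full match. Of the 154 higher genes 121 had an entry, with 148 promoters. Of these, 56.1% held CCAAT, 41.9% CHR letters and 29.7% both, in any order and spacing. Over the promoters of all compared genes (5360 of 6875 matched) these shares were 36.1%, 17.4% and 6.48%, and over all 32851 promoters 33.8%, 25.2% and 8.78%. Of the score genes 5 had an entry, Tpx2 did not, and 5 promoters held CCAAT and 4 CHR letters. Promoters of the 92 lower genes (67 matched, 82 promoters) held CCAAT in 41 (50%), CHR letters in 15 (18.3%) and both in 8.54%. E2F letters were in 9 of them (10.98%). Promoters of S phase replication genes held CCAAT in 58.7%, CHR letters in 13.04% and both in 6.52%. The CCAAT share was thus above that of all compared genes in the higher, the lower and the S phase replication genes alike. E2F letters were in 2.70% of the promoters of higher genes, in 3.14% of those of all compared genes and in 13.04% of those of S phase replication genes. The sets of higher and lower genes were chosen by the ratios above, and no test was made of these shares.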

How the data were processed

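The authors deposited raw UMI counts per gene and barcode, 1 table per stage, from Oct4GFP+ cells sorted by FACS and prepared with the 10x v2 protocol, per the labels' protocols. Per the submitters' processing notes, reads went through Cell Ranger (no version) on mm10/GRCm38; which gene annotation was used is not stated. The tables hold 2847 barcodes, 16180 genes and 60383440 UMIs at E12.5, and 2992, 16430 and 59842242 at E13.5. At E12.5, 2666 barcodes passed the gene minimum, 2517 also the UMI minimum, 2505 also the mitochondrial limit and 2494 also the germ marker limit. Doublets called by Scrublet (scanpy 1.11.5) were kept, and left out in an alternative.

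UMIs were summed over the barcodes of a set and divided by the set's total (CPM). Ratios have exact conditional binomial intervals. With 1 library per stage no test was run. The members and gene lists were chosen with earlier results of these data known. Named genes were the score genes, the 15 highest and 10 lowest ratios at 50 CPM or more, up to 3 genes at each end (5 at the high end of cell cycle lists) and the most abundant of each list, and the 5 most alike by rank correlation. Bub1, Bub1b, Ccna2, Ccnb2, Gtsf1l, Mad2l1, Mcm5, Ndc80, Nodal, Racgap1, Rbm44, Sox2 and Zfp42 fell outside this rule and were named after their values were seen. 1 gene that the rule names is not reported here. Positions come from GENCODE M21 and promoters from RefSeq on GRCm38.p6. Python 3.11.15, scipy 1.17.1 and R 4.3.3 with edgeR 4.0.16 (TMM factors only) were used.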

Additional observations from a re-analysis of the deposited data

Results flagged for a closer look

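Among genes compared at both stages, 2 were past 1.5-fold in opposite directions at E12.5 and E13.5. Gtsf1l had 18.1 CPM in the E12.5 high-score set and 8.46 in the low-score set (log2 ratio 1.097), and at E13.5 it had 15.02 and 31.9 CPM (log2 ratio -1.09). Rbm44 had 19.3 and 30.3 CPM at E12.5 (log2 ratio -0.65), and at E13.5 it had 29.7 and 19.5 CPM (log2 ratio 0.61). The difference between the stages was not tested, since each stage has 1 library, and both genes were named after their values were seen.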

How the results depend on the processing

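The counts of 154 higher and 92 lower genes were recomputed under 22 alternatives, 4 of them added after the data were seen. Signs were followed for the named genes only, and none past 1.5-fold changed sign. Of 68 named genes at least 1.5-fold apart, 56 stayed past 1.5-fold the same way under every alternative. Both counts and the sign result include the score genes, which chose the members in the main contrast. A changed minimum level leaves the ratio of each gene as it was, so such alternatives could not lose a call of a named gene. Birc5 and Mki67, at the boundary, and Ncapd3 lost the call most often. Against all other germ barcodes, 71 genes were higher and 58 lower, with 3 kinetochore genes higher, 12 replication genes lower and 130 genes higher at E13.5. With no minimum level the counts were 1239 higher, 837 lower and 1293 higher at E13.5. At a minimum of 50 CPM they were 44 higher, 25 lower, 12 replication genes lower and 74 higher at E13.5. Against the S-low part of the low-score set, 60 genes were lower, 10 of them replication genes, and 668 were higher at E13.5. Against its S-high part, 152 were lower. The low-score set's median UMIs were 23514.5 when the score was taken after thinning, 23565 in the S-low part and 22318 in the S-high part. For the fewer calls at 50 CPM and the more calls without a minimum, the number of genes compared changed (2662 and 13658, from 6875). For the other alternatives the cause was not tested. TMM factors gave 128 higher and 110 lower genes. Genes under 10 CPM were not compared, and levels near 10 CPM rest on few UMIs per barcode. No paired analysis was possible because each stage has 1 library and the result comes from no test.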

Other observations

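Several genes outside the lists of cell cycle, germ cell and marker genes stood at least 1.5-fold higher in the members, named here after their values were seen. Hn1 had 564 CPM in members and 308 in the low-score set, and Mtdh 268 and 158 CPM. Cdkn3, a phosphatase that acts on Cdk1 and Cdk2, had 30.4 and 12.7 CPM. On the low side were Brca1, a DNA repair gene, at 28.8 and 54.4 CPM, and Skp2, which directs the breakdown of CDK inhibitors, at 12.4 and 23.9 CPM. Within the members, selection on a sum makes the score genes trade off against one another, so their rank correlations there (Ccnb1 with Cdc20 0.23, Ccnb1 with Cenpf -0.20, 587 thinned barcodes) cannot be set against those over all germ barcodes (0.56 and 0.42, 2328 barcodes).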
